A study of Mus musculus with 128 samples.

Results

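The comparison described here is that of mouse metaphase II (MII) oocytes without maternal Kdm4a against wildtype MII oocytes. Its members are the 32 libraries labelled as MII oocytes, of 128 libraries in the whole series, taken by their labels: 16 from wildtype and 16 from knockout oocytes. All are of the C57BL/6 strain, and the labels give the genotype of the wildtype group as m+/p- and that of the knockout group as m-/p-. An MII oocyte has not been fertilized, so no paternal allele is present yet in either group, and the groups differ in the Kdm4a alleles of the mother. The labels name no promoter or Cre driver for the deletion and do not say which part of the gene is missing. Oocytes of both genotypes were taken at the same time, their zona was dissolved in acid Tyrode's solution, and each oocyte was lysed in a tube of its own, so a library is the polyadenylated RNA of 1 cell. No label names the mothers, so p-values here measure the spread between oocytes and not between females.

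Kdm4a encodes a JmjC-domain histone demethylase that removes methyl groups from trimethylated lysine 9 and lysine 36 of histone H3. The first mark is typical of heterochromatin and of silenced repeats, the second of transcribed gene bodies. A fully grown oocyte has stopped transcription, and the transcripts of an MII oocyte are a store made during growth, from which proteins are translated until the embryonic genome is activated.

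Total counts ran from 2123598 to 3766643 in wildtype and from 2496970 to 4657857 in knockout libraries. The labelled cell type was checked on its markers: the summed level of 18 oocyte markers was 25800 to 32600 CPM (the count per 1000000 counts of the library) among wildtype libraries and 28100 to 35800 among knockout libraries other than replicate 15. Of 21 cumulus and granulosa markers, genes of the cells that surround the oocyte, 18 had a median of 0, Fshr, Lhcgr, Foxl2 and Has2 among them, and nearly all of their sum (72.8 to 123 in wildtype, 86.8 to 129 in knockout, 55.7 in replicate 15) came from Cyp19a1. The spread within a genotype, as edgeR's common biological coefficient of variation, was 0.243 in wildtype and 0.365 in knockout, and 0.247 in knockout without replicate 15.

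Knockout replicate 15 stood apart from the other 31 libraries, so counts of calls in groups of genes are given with and, in parentheses or by name, without it. Its median rank correlation with libraries of its own genotype was 0.741, against 0.941 to 0.958 for the others, and it was the only one of the 32 that resembled the mean wildtype 2-cell profile (0.791, others 0.718 to 0.779) more than the mean wildtype MII profile (0.765, others 0.942 to 0.978). Its total of 3355505 counts lay within the range of the others. Transcripts of the oocyte growth factor Gdf9 were at 15.8 CPM against 583 to 1318 CPM in wildtype, those of the protease gene Plat at 6.26 CPM against 1180 to 3163 CPM, and those of Mos, the kinase that holds the egg at metaphase, at 0. Fth1, the ferritin heavy chain, was at 368 CPM against 6.12 to 17.9 CPM in wildtype, and mitochondrially encoded transcripts made up 3.57% of its counts against 0.825% to 1.93% in the other libraries. Its oocyte marker sum was 18400 CPM. What set this library apart was not tested.

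Kdm4a, on the minus strand of chromosome 4 (mm10 118136957 to 118180043), was the check of the labels. Its lowest, median and highest levels were 4.60, 10.9 and 16.2 CPM in wildtype, and 0.352, 1.19 and 3.76 CPM in the 15 other knockout libraries, and it was at 0 in knockout replicate 15. Here and below, 3 values in a row are the lowest, the median and the highest, and those of knockout leave out replicate 15. The genotypes did not overlap. The log2 fold change, knockout minus wildtype as in all that follows, was -3.001 (SE 0.24, edgeR quasi-likelihood adjusted p = 4.96e-11) and -2.91 without replicate 15. Reads of the gene were left in 15 of 16 knockout libraries, and since values are per gene the data do not say which exons they came from.

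Across all genes the effect was broad and mostly small. With all 32 libraries, 405 of 7680 genes tested (5.27%) were higher and 514 (6.69%) lower in knockout oocytes at an adjusted p under 0.05. Without replicate 15, 759 of 7742 (9.8%) were higher and 758 (9.79%) lower. Of the 405 and 514 calls, all but 13 and 1 were also made without it, so leaving out the library added calls and took few away: 367 higher and 245 lower genes were called only then. Among the calls over 32 libraries the median log2 fold change was 0.59 for higher and -0.63 for lower genes. A change of 1 or more on the log2 scale was seen in 49 higher and 92 lower genes, and one of 2 or more in 0 higher and 19 lower genes (1 and 20 without replicate 15). The largest called changes over 32 libraries were thus decreases. The median over all genes tested was 0.018 (0.004 without replicate 15).

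**Figure D1:**
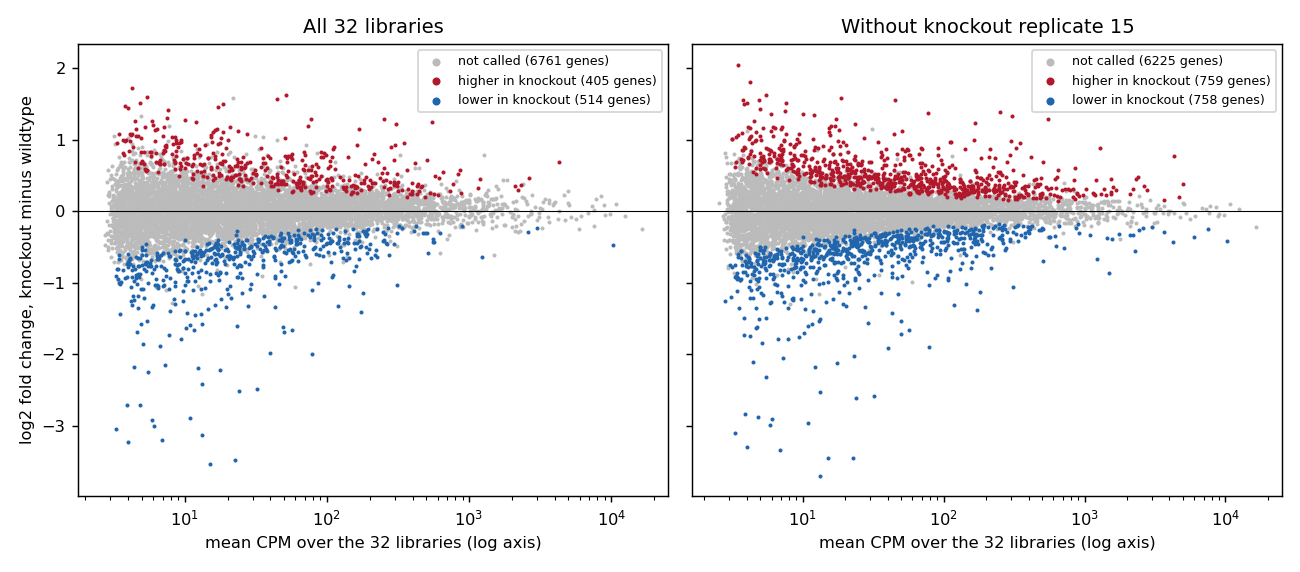
Log2 fold change of each gene tested (vertical, knockout minus wildtype) against its mean CPM over the 32 libraries (horizontal, log axis), with all libraries (left, 7680 genes) and without knockout replicate 15 (right, 7742 genes). Called genes lie at all levels, and those with the largest changes are decreases of genes at a low or middle level.

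The number of calls in each direction differed along the range of levels. Among 2241 genes with a mean under 10 CPM, 85 were higher (3.79%) and 140 lower (6.25%), and 132 and 192 without replicate 15. Both shares were under those of all genes, 5.27% and 6.69%. Among 2026 genes of 10 to 30 CPM, 100 were higher (4.94%) and 163 lower (8.05%), and 179 and 220 without replicate 15. From 100 to 300 CPM the numbers were equal, 73 and 73 of 1052, or 6.94% each (150 and 117 without replicate 15). Of 453 genes at 300 to 1000 CPM, 36 were higher (7.95%) and 15 lower (3.31%), and 74 and 31 without replicate 15. Of 163 genes above 1000 CPM, 7 were higher and 4 lower (24 and 17 without replicate 15). In the top class the shares of 4.29% higher and 2.45% lower were under those of all genes, and without replicate 15 they were 14.7% and 10.4%, above those of all genes.

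Among named genes, the lower transcripts with the smallest p-values and a level of at least 20 CPM in wildtype were Ttc6, Serpinb3a, Prex2, Lepr, Slc9b1, Fgf7, Scoc and Hmgb1. Ttc6, a tetratricopeptide repeat gene on chromosome 12 (57564113 to 57737928), ran from 54.97 over a median of 85.9 to 116 CPM in wildtype and from 17.5 over 24.3 to 45.9 CPM in knockout, with replicate 15 at 25.03. The genotypes did not overlap, and replicate 15 lay among the other knockout oocytes. The log2 fold change was -1.66 (SE 0.14, adjusted p = 4.96e-11; -1.67 without replicate 15). Serpinb3a, a serine protease inhibitor on chromosome 1 (107045587 to 107052303), had 23.0, 61.5 and 92.9 CPM in wildtype and 8.59, 16.0 and 25.6 CPM in knockout, with replicate 15 at 5.36. All knockout libraries lay below the wildtype median, and the ranges overlapped (log2 fold change -1.98, SE 0.17, adjusted p = 8.72e-11; -1.92 without replicate 15).

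Prex2, an exchange factor for the small GTPase Rac on chromosome 1 (10993465 to 11303681), had 116, 171 and 246 CPM in wildtype and 39.5, 66.7 and 98.1 CPM in knockout, with replicate 15 at 52.8. The groups did not overlap, and the log2 fold change was -1.32 (SE 0.12, adjusted p = 3.49e-10; -1.31 without replicate 15). Lepr, the leptin receptor on chromosome 4 (101717404 to 101815352), had 20.4, 27.5 and 46.6 CPM in wildtype and 1.98, 5.93 and 17.2 CPM in knockout, with replicate 15 at 0.596. Again every knockout library lay under every wildtype library (-2.21, SE 0.25, adjusted p = 3.39e-08; -2.12 without replicate 15). Fgf7, the keratinocyte growth factor, had 10.5, 19.2 and 31.6 CPM in wildtype and 0, 4.29 and 13.04 CPM in knockout, with replicate 15 at 3.87. Its ranges overlapped, with all 16 knockout libraries under the wildtype median (-2.19, SE 0.28, adjusted p = 4.63e-07; -2.18 without replicate 15).

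Scoc, a short coiled-coil protein of the Golgi on chromosome 8 (83430510 to 83458349), was one of the more abundant of these transcripts, with 359.6, 417 and 522 CPM in wildtype and 104, 232 and 276 CPM in knockout, with replicate 15 at 218. The genotypes did not overlap (-1.03, SE 0.14, adjusted p = 1.28e-06; -1.06 without replicate 15). Slc9b1, of a sodium and proton exchanger family, fell from a median of 262 to 108 CPM without replicate 15 (log2 fold change -1.14 over 32 libraries, adjusted p = 5.85e-08), and Hmgb1, a chromatin protein that bends DNA, from 306 to 232 CPM (-0.46, adjusted p = 3.02e-05). Their ranges overlapped, but all 16 knockout libraries lay under the wildtype median in both. Over 90% of the values of Slc9b1 and all of those of Hmgb1 were not whole numbers, as happens where a counting divides a read among several genes or positions.

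The higher transcripts with the smallest p-values were Fam32a, Hmgcs1, Nlrp5, Apip, Mkln1, Tmem117, Me1 and Tsc22d1. Fam32a on chromosome 8 (72219730 to 72224418) had 4.51, 8.10 and 14.7 CPM in wildtype and 12, 22.6 and 33.8 CPM in knockout, with replicate 15 at 55.7. All knockout oocytes lay above the wildtype median, and replicate 15 was the highest of them (1.46, SE 0.21, adjusted p = 4.80e-06; 1.29 without replicate 15). Hmgcs1, the cytosolic synthase that starts the mevalonate route to cholesterol (chromosome 13, 119690446 to 119708260), had 101, 154 and 228 CPM in wildtype and 162, 294 and 351 CPM in knockout, with replicate 15 at 106. Only replicate 15 lay under the wildtype median (0.81, SE 0.12, adjusted p = 9.31e-06; 0.86 without it). An antisense transcript inside the same gene, Gm48342, was also higher (0.59, adjusted p = 5.37e-04), and since it is not stated that the counting used strand, its reads and those of Hmgcs1 cannot be told apart.

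Nlrp5, which encodes a core protein of the subcortical maternal complex that the early embryo needs (chromosome 7, 23385889 to 23441922), had 250.1, 293 and 543 CPM in wildtype and 385, 725 and 1723 CPM in knockout, with replicate 15 at 389. All 16 knockout libraries were above the wildtype median, and the knockout range was the wider (1.25, SE 0.18, adjusted p = 9.64e-06; 1.30 without replicate 15); 90.6% of its values were not whole. Mkln1, muskelin, a subunit of a large ubiquitin ligase, had 488, 690.1 and 1027 CPM in wildtype and 847, 1057 and 1279 CPM in knockout, with replicate 15 at 753. The ranges overlapped, with no knockout library under the wildtype median (0.58, SE 0.09, adjusted p = 2.54e-05; 0.60 without replicate 15). Medians rose from 159.9 to 256 CPM for Apip, an enzyme of methionine salvage, from 399 to 598 CPM for Me1, the cytosolic malic enzyme, from 520.1 to 780.2 CPM for the leucine zipper gene Tsc22d1 and from 193 to 304 CPM for Tmem117, the knockout medians without replicate 15. Each was called with and without replicate 15, with log2 fold changes of 0.74, 0.72, 0.55 and 0.53 over 32 libraries.

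Among transcripts with a mean of at least 200 CPM, the 6 largest increases called with and without replicate 15 were Nlrp5 and Hmgcs1, described above, and Calm2, one of the calmodulin genes, at 1.30, Kpna2, an importin that carries proteins into the nucleus, at 0.96, Gstm5, a glutathione transferase, at 0.93, and Birc5, the survivin subunit of the chromosomal passenger complex, at 0.89. The 6 largest decreases were Scoc and those of Mfap1a, a spliceosome protein, at -0.64, the oligoadenylate synthetase family gene Oas1c and the placenta-linked gene Plac8, both at -0.61, Tclb5 of the Tcl1 family at -0.59, and Taf1a, a subunit of the RNA polymerase I selectivity factor, at -0.54. None of these 12 changed 4-fold. Calm2 ran from 41.5 to 285 CPM in wildtype oocytes and from 214 to 1001 CPM in knockout oocytes, with replicate 15 at 37.3, below every other library. Oas1c (157, 329.9 and 501 CPM in wildtype and 101, 254 and 354 CPM in knockout, with replicate 15 at 47.98) lost its call in 6 of the fits that left out 1 library (adjusted p = 0.0314 over all libraries, highest 0.0565), and the other 11 kept theirs in all of them.

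**Figure D2:**
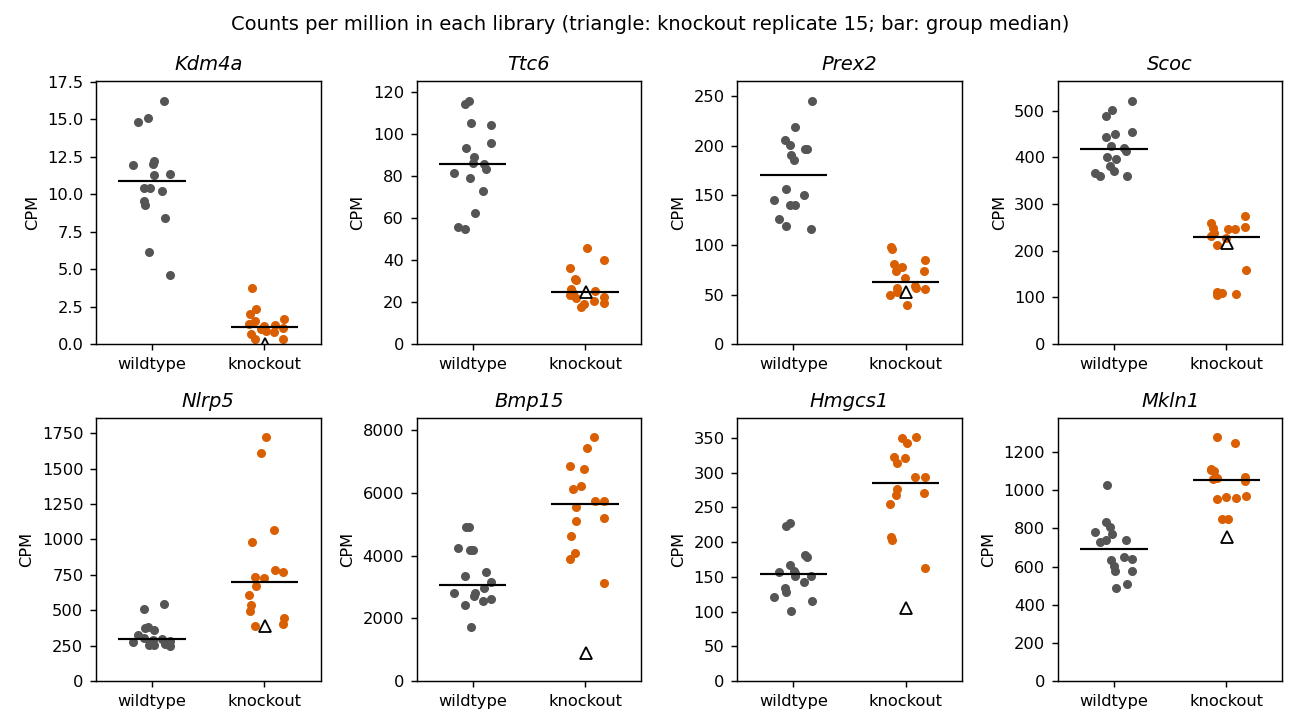
CPM of 8 genes in each of the 16 wildtype and 16 knockout libraries, with group medians as bars and knockout replicate 15 as a triangle; each axis starts at 0. Kdm4a, Ttc6, Prex2 and Scoc show no overlap between the genotypes, while Nlrp5, Bmp15, Hmgcs1 and Mkln1 are higher in knockout with overlapping ranges.

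The promoter sequences of the first lower and higher named genes are shown so that their content of CG, the site of DNA methylation, can be compared. Windows are 250 bases before to 50 after the RefSeq start on GRCm38.p6, which is the mm10 assembly, written 5′ to 3′ on the gene's strand. Capitals mark each CG. The windows lie at chr12:57563865-57564164 (Ttc6), chr1:107052254-107052553 (Serpinb3a), chr8:72219495-72219794 (Fam32a) and chr13:119690101-119690400 (Hmgcs1).
Ttc6: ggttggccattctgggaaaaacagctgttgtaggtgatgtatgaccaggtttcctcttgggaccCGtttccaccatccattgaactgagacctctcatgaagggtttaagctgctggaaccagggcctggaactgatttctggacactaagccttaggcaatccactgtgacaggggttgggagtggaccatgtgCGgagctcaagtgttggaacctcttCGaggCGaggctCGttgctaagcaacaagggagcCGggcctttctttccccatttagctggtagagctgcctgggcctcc
Serpinb3a: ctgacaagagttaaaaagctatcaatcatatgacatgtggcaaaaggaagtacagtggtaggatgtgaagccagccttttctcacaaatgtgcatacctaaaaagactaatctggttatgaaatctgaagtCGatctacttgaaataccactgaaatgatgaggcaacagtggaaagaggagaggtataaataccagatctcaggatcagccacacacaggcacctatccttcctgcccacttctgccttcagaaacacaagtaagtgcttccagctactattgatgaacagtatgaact
Fam32a: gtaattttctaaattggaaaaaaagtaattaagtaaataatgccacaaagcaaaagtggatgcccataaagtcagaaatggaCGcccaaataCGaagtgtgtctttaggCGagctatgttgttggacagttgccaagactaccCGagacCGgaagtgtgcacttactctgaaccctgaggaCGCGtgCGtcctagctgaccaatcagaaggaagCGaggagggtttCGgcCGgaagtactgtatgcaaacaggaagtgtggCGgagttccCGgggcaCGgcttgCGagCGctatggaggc
Hmgcs1: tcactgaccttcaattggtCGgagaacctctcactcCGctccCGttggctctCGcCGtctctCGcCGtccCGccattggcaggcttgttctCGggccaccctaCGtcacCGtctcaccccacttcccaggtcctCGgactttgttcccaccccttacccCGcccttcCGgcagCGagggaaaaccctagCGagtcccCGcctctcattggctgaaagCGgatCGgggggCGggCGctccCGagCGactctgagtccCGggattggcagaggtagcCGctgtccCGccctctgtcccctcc
The lower genes had 6 and 1 CG in these 300 bases, and the higher genes 16 and 26, where the median over 32851 windows was 7. Of all windows, 56.4% held at least as many as Ttc6, 94.6% as many as Serpinb3a, 33.0% as many as Fam32a and 16.9% as many as Hmgcs1. These are 4 genes and not a class: a single window could be matched for 59.7% of the coding genes tested, under the 80% set for comparing all called genes by CG content, so that check was void.

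A part of the steepest decreases was clustered in the genome, while others, such as those of Kdm4a and Lepr, lay outside the windows described here. These windows were chosen after the values were seen, so their counts are descriptions. On chromosome X between 25917944 and 35348739, 11 genes were tested, all long intergenic non-coding RNAs with clone names in the file, and all 11 were lower, with log2 fold changes from -1.69 to -3.47 (median -2.88, and -2.96 without replicate 15). They supplied 10 of the 19 genes that were at least 4-fold lower. Gm7437 (chromosome X, 30373539 to 30422500) had 18.4, 41.9 and 68.2 CPM in wildtype and 0.333, 1.76 and 8.999 CPM in knockout, with replicate 15 at 2.68. E330016L19Rik (30037837 to 30087879) had 28.7, 56.4 and 68.5 CPM in wildtype and 1.57, 8.10 and 20.2 CPM in knockout, with replicate 15 at 16.4, and Gm2309 (35129015 to 35179028) had 26.8, 39.5 and 53.7 CPM in wildtype and 2.46, 4.74 and 13.6 CPM in knockout, with replicate 15 at 11.9. In none of the 11 did any knockout library reach the lowest wildtype library. For Gm7437, E330016L19Rik and Gm2309 the log2 fold changes were -3.47 (SE 0.29, adjusted p = 5.99e-11), -2.48 (SE 0.23, adjusted p = 2.49e-10) and -2.51 (SE 0.21, adjusted p = 5.74e-11).

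Most of the 11 share nearly all of their transcript sequence with at least 1 other of them, while E330010L02Rik (40.7%) and Gm7437 (75.9%) share less. Of the stretches of 31 bases in their annotated transcripts, a median of 97.4% (lowest 40.7%) also occurred in another of the 11, and over 90% of the values of each were not whole, so reads can be divided between them and the fold changes are not independent. The windows around the RefSeq starts of the 3 named above show the copying; RefSeq places these starts inside the genes as the file gives them, so the windows are not upstream of the spans counted. Capitals mark the longest run that all 3 share, 228 bases, at chrX:30071403-30071702, chrX:30407131-30407430 and chrX:35162596-35162895.
E330016L19Rik: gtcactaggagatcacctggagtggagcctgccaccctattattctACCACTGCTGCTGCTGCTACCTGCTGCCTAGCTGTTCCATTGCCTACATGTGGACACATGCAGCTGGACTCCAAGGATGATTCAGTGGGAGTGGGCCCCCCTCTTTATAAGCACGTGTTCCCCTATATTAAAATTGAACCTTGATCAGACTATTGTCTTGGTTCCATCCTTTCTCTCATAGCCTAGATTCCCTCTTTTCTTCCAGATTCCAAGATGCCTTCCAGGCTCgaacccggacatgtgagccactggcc
Gm7437: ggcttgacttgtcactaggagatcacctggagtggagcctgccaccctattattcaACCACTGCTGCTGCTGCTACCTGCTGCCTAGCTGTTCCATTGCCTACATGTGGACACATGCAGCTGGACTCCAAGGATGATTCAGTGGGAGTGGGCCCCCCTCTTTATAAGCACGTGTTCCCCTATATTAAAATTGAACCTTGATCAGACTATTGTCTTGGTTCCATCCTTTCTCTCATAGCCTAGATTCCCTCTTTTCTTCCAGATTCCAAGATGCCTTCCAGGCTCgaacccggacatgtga
Gm2309: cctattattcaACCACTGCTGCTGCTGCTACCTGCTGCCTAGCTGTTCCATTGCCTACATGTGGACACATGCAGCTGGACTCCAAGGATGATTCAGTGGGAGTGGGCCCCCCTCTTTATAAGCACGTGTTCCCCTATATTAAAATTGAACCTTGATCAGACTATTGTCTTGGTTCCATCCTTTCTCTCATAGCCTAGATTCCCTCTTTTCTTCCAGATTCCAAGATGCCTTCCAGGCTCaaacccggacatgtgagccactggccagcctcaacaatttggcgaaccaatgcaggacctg
The same 228 bases stood in 12 of the 32851 windows (0.0365%). Each window holds 3 CG.

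A less steep cluster was a zinc-finger array on chromosome 4 between 145510759 and 147848366, genes that encode DNA-binding proteins with tandem zinc fingers. Of 20 genes tested there, 10 were lower and 0 higher, with and without replicate 15, and the called log2 fold changes of coding genes ran from -0.35 to -0.92. The 10 include a long intergenic non-coding RNA, Gm16211, at -1.09, which shared 0% of its stretches of 31 bases with the others. Zfp600 was at 38.4, 71.8 and 93.5 CPM in wildtype and 26.6, 44.0 and 62.3 CPM in knockout, with replicate 15 at 43.2. All 16 knockout libraries were under the wildtype median, with overlapping ranges (-0.68, SE 0.13, adjusted p = 3.86e-04). Zfp985, Zfp988 and Zfp981 fell by 0.92, 0.92 and 0.88 on the log2 scale, and Rex2, a gene of the same array, fell by 0.64. The most abundant members, Zfp979 and Zfp982, did not pass the test, at -0.07 and -0.06, while the next, Zfp980, passed at -0.35 (adjusted p = 0.0351). The 10 called genes shared a median of 77.2% of their stretches of 31 bases with others of the array. A run of 42 bases, in capitals, stood in the promoter windows of 3 called members at chr4:147553027-147553326, chr4:147305354-147305653 and chr4:147021600-147021899, and in 6 of all windows.
Zfp985: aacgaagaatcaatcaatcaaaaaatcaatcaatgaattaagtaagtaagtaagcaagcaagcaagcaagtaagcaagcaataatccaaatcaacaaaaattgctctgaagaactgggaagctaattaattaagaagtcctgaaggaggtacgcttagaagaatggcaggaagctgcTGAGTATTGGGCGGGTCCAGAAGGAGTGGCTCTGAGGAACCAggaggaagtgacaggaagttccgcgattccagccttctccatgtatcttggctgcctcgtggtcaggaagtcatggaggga
Zfp988: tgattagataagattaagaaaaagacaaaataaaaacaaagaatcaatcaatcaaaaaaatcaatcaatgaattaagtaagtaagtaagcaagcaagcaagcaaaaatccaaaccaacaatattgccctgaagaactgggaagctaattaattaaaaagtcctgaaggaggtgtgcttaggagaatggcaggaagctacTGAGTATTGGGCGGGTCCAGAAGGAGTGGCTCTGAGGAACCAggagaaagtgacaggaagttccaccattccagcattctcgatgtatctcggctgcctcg
Rex2: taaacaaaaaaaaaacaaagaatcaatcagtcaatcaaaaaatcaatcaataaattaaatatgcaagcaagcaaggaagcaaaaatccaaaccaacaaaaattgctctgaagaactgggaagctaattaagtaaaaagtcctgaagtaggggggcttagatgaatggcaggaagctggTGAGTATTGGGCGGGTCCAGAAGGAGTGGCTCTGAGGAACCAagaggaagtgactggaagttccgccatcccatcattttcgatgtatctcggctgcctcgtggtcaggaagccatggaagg
The third cluster lay on chromosome 14 between 41105035 and 44637201, where 8 of 15 genes tested were lower and 0 higher, with and without replicate 15. Its steepest members were Gm5798 at -1.73, Gm8011 at -1.63 and 1700049E17Rik1 at -1.07. Gm5798 alone of the 8 did not overlap between the genotypes when replicate 15 was set aside, and 7 of the 8 had an annotated transcript, with a median of 59.3% of stretches shared.

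Of 655 long non-coding genes tested, 93 (14.2%) were lower and 23 (3.51%) higher, with a median log2 fold change of -0.04, and without replicate 15 they were 110 and 32 of 666, with a median of -0.10. The difference in shares was not tested, since genes are not independent. Protein-coding genes gave 409 lower (5.88%) and 379 higher (5.45%) of 6960, and 633 and 723 of 7011 without replicate 15, so their balance turned towards increases. Within the non-coding genes, 64 of 369 long intergenic RNAs were lower and 17 higher (77 and 21 of 374), and 13 of 158 antisense transcripts were lower and 3 higher (14 and 5 of 161). The increases with the smallest p-values in these types were those of the antisense transcripts Gm48342 and Gm47027, at 0.59 and 0.64, and of the processed transcript 1700030C10Rik, at 1.47. Outside the 3 clusters, 80 of 640 long non-coding genes were still lower (12.5%).

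Genes were also grouped by how many of their values were not whole, a mark of divided reads. Of 386 genes with more than 90% of their values not whole, 93 (24.1%) were lower and 10 (2.59%) higher (134 and 26 of 389 without replicate 15), with a median log2 fold change of -0.16 (-0.22). Of 1949 genes with at most 10% such values, 81 were lower (4.16%) and 79 higher (4.05%), and 122 and 141 of 1987 without replicate 15. Within the class of over 90%, coding genes had 67 of 317 lower and 9 higher (102 and 25 of 318), and long non-coding genes 23 of 54 lower and 0 higher (28 and 0 of 56). Outside the 3 clusters the class had 66 lower and 10 higher of 347. Coding genes with plain symbols and at most 90% such values gave 323 lower and 356 higher of 6404 (501 and 676 of 6450). By length, of 527 genes under 1 kb of exon, 84 were lower (15.9%) and 27 higher (5.12%), and of 3074 over 4 kb, 104 were lower and 121 higher (114 and 42 of 533, and 167 and 239 of 3097, without replicate 15). Shared reads, low level, short length and non-coding type overlap in the same genes, and their parts in these counts were not tested.

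**Figure D3:**
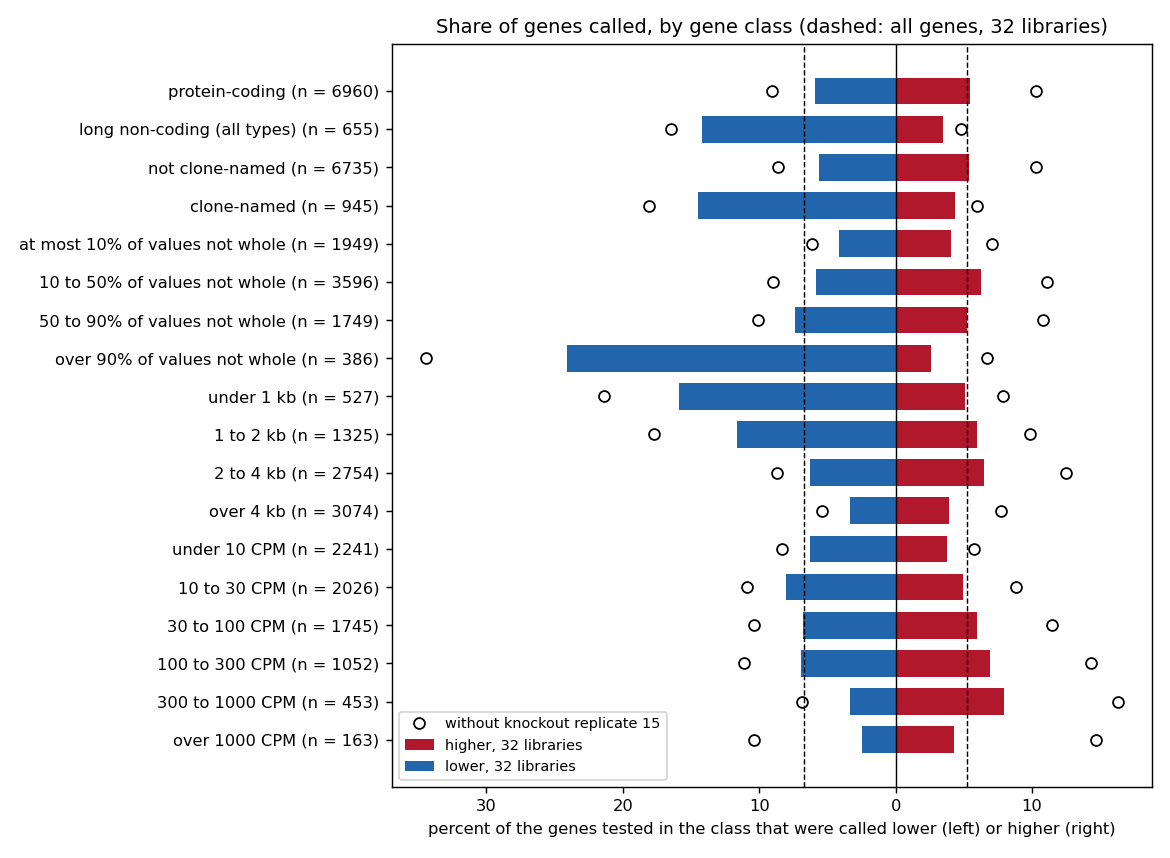
Percent of the genes tested in each class that were called lower (left) or higher (right) in knockout oocytes, as bars for all 32 libraries and open circles without knockout replicate 15; dashed lines are the shares over all genes, 6.69% and 5.27%. Genes with over 90% of values not whole reach furthest to the left, followed by genes under 1 kb, clone-named genes and long non-coding genes.

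Over 32 libraries the highest shares of lower calls were on chromosomes 17 and 14, and without replicate 15 on the mitochondrial chromosome, with 9 of 25 genes. Chromosome 17 had 30 of 280 lower (10.7%) and 10 higher (3.57%), and chromosome 14 had 33 of 317 lower (10.4%) and 15 higher (4.73%). Without replicate 15 they had 41 and 18 of 283, and 42 and 22 of 319. Of the 33 lower genes of chromosome 14, 8 lay in the cluster described above. Chromosome X had 23 of 279 lower and 21 higher (29 and 32 of 281), and 11 of the 23 were the clustered non-coding genes described above. By their later course in wildtype embryos, 3317 genes with more transcript at the 2-cell than at the 8-cell stage, a class that takes in maternal messages being lost, had 274 lower (8.26%) and 179 higher (5.40%), and 394 and 314 of 3320 without replicate 15. The 1461 genes with more transcript at the 8-cell stage had 85 lower (5.82%) and 98 higher (6.71%), and 120 and 177 of 1468 without it.

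Functional groups are given by their counts, to be read against 5.27% higher and 6.69% lower over all genes, and counts without replicate 15 against 9.8% and 9.79%. The 63 lists covered oocyte functions, cell cycle, RNA, translation, metabolism, protein turnover, chromatin, transcription, trafficking and signalling. Of the 59 with at least 5 members tested, 54 had a median log2 fold change within 0.2 of 0 over 32 libraries (53 without replicate 15), and 3 of the 59 had no call over 32 libraries.

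Oocyte factors held several of the increases. Of 17 oocyte markers tested, 5 were higher and 0 lower (6 and 1 without replicate 15), though the list's median was -0.05. They were Nlrp5, Bmp15, Zp2, Nobox and Kit. Bmp15, a growth factor that the oocyte sends to its follicle cells, had 1706, 3063 and 4919 CPM in wildtype and 3133, 5726 and 7776 CPM in knockout, with replicate 15 at 879.5. Without replicate 15 only wildtype libraries fell under 3133 CPM, and the ranges still overlapped (0.69, SE 0.16, adjusted p = 4.78e-03; 0.78 without replicate 15, adjusted p = 4.36e-05). Zp2, a protein of the zona pellucida, rose from a median of 174 to 246 CPM (0.69), the oogenesis factor Nobox from 17.2 to 26.8 CPM (0.73) and the receptor Kit from 87.3 to 139 CPM (0.46), the knockout medians without replicate 15. The other oocyte growth factor, Gdf9, was at -0.08 (adjusted p = 0.888; 0.03 without replicate 15). Its knockout values differed by replicate number: 852 to 1705 CPM in replicates 1 to 8, and 604 to 956 CPM in 9 to 16 without replicate 15. Wildtype libraries had 709 to 1316 and 583 to 1318 CPM in the same numbers. The oocyte markers gave 4 higher and 0 lower in replicates 1 to 8, and 5 and 3 in 9 to 16 without replicate 15. The source of this difference was not tested.

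Of the 8 genes of the subcortical maternal complex list, 2 were higher (Nlrp5 and Khdc3) and 0 lower, and 5 were higher without replicate 15, where Tle6 was at 0 and Ooep at 14.3 CPM. The list's median was 0.35 (0.44 without replicate 15), over 32 libraries the highest of the lists with at least 5 members tested. Without replicate 15, Ooep was at 0.54 (adjusted p = 0.0250) and Tle6 at 0.66 (adjusted p = 8.72e-03), while Zbed3 was at -0.06 (adjusted p = 0.570). Among 11 oocyte Nlrp genes, relatives of Nlrp5 with NACHT and leucine-rich repeats, 2 were higher and 0 lower over 32 libraries and 6 were higher and 1 lower without replicate 15. Nlrp14, needed by the early embryo, had 2483, 4520 and 6433 CPM in wildtype and 4229, 5828 and 8653 CPM in knockout, with replicate 15 at 569. It passed the test only without that library (0.29, adjusted p = 0.285, against 0.38, adjusted p = 7.19e-03). Nlrp4e went the other way: wildtype oocytes had 197 to 316 CPM, knockout 72.98 to 214 and replicate 15 had 754 CPM, so its log2 fold change was -0.36 (adjusted p = 0.357) with the library and -0.79 (adjusted p = 8.80e-07) without it.

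Multi-copy families expressed in oocytes (Tcl1, Obox, Oog, Oas1, Khdc1, Fbxw and Pramel genes) held decreases. Of 38 tested, 7 were lower and 0 higher, with a median of -0.18, and 13 were lower and 3 higher without replicate 15. Obox1, a homeobox gene and among the most abundant transcripts here, had 7105, 11500 and 17050 CPM in wildtype and 6628, 8431 and 12300 CPM in knockout, with replicate 15 at 3743. The genotypes overlapped widely (-0.47, SE 0.12, adjusted p = 8.01e-03; -0.42 without replicate 15). Other members called lower were Oas1h at -0.52, Fbxw26 at -0.44 and Fbxw25 at -0.58. Oog1 had a median of 1969 CPM in wildtype and 1042 CPM in knockout, a difference that passed the test without replicate 15 (-0.86, adjusted p = 2.44e-03) and not with it (-0.61, adjusted p = 0.0802).

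Innate immune genes had 5 lower and 0 higher of 17 (6 and 0 of 18 without replicate 15), with a median of -0.34 (-0.28), over 32 libraries the lowest of the lists with at least 5 members tested. Nlrc4, an inflammasome sensor, had 43.3, 73.6 and 114 CPM in wildtype and 2.52, 21.5 and 76.5 CPM in knockout, with replicate 15 at 4.17. The knockout oocytes ranged widely and reached the wildtype range at the top (-1.62, SE 0.33, adjusted p = 1.33e-03; -1.54 without replicate 15). The others called were Oas1h, Oas1f, Oas1c and Ifit1bl2, so 3 of the 5 were Oas1 genes, some of which also stand in the multi-copy list.

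Of 32 M-phase kinases and their regulators, 6 were higher and 1 lower (6 and 2 without replicate 15). Anapc1 and Anapc5, subunits of the anaphase-promoting complex, were higher by 0.58 and 0.52, Ensa, which restrains the phosphatase that opposes mitotic kinases, by 0.77, and Cks1b, a small binding partner of Cdk1, fell by 0.46. Cyclin Ccnb1 was at 0.08 (adjusted p = 0.673). Of 44 spindle and kinetochore genes, 4 were higher and 1 lower (7 and 1). Aurkb, the kinase partner of Birc5 in the passenger complex, rose from a median of 12.5 to 21.3 CPM (0.81, adjusted p = 0.0245), Mis18a, which helps to place the centromeric histone, was at 1.29, and Tacc3, a spindle protein, at -0.63. The actin and tubulin lists held changes in both directions: Tpm4, a tropomyosin, had 4.25, 14.6 and 56.5 CPM in wildtype and 34.6, 66.2 and 102 CPM in knockout (1.58, SE 0.29, adjusted p = 3.36e-04), while the myosin light chains Myl12b and Myl12a were at -1.18 and -0.62 and the alpha-tubulins Tuba1a and Tuba1b at -1.09 and -1.05. The tubulin pair are near-identical copies whose reads the counting could split.

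Chromatin lists held calls in both directions, to be read against 5.27% higher and 6.69% lower over all genes. H3K4 methylation genes gave 1 higher and 0 lower of 14, with and without replicate 15. Remodelling complexes gave 0 higher and 1 lower of 32 (0 and 2 of 33). In the list of H3K9 methylation and HP1 genes, 3 of 17 were lower, Kdm4a itself, Mphosph8 at -0.30 and Ehmt1 at -0.44, and 1 was higher, the HP1 gene Cbx3 at 0.35 (3 and 2 without replicate 15). Of 11 genes of H3K36 methylation, 0 were called in either direction over 32 libraries, and 1 was lower without replicate 15. The methyltransferases Setdb1 and Setd2 were at -0.40 (adjusted p = 0.107) and -0.10 (adjusted p = 0.665). Polycomb genes gave 2 higher and 2 lower of 28 (2 and 1), and DNA methylation genes 1 higher and 0 lower of 12 (2 and 0), the imprint protector Zfp57 at 0.26. Of 26 histone variants and chaperones, 3 were lower and 0 higher (4 and 1): Npm2, the egg nucleoplasmin that remodels sperm chromatin, at -0.66, Chaf1a at -0.67 and H2afz at -0.45. Npm2 had 122, 191 and 337 CPM in wildtype and 80.03, 134 and 198 CPM in knockout, with replicate 15 at 64.4. Its ranges overlapped (SE 0.14, adjusted p = 1.10e-03; -0.62 without replicate 15). Zinc-finger genes with plain symbols, most of the array above having clone names in the file, gave 8 higher (4.52%) and 7 lower (3.95%) of 177, and 10 (5.59%) and 18 (10.1%) of 179 without replicate 15.

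Of 34 deadenylation and decay genes, 4 were lower and 0 higher (6 and 0 without replicate 15): the exosome subunits Exosc1 at -0.41, Exosc3 at -0.38 and Dis3 at -0.62, and the ubiquitin ligase Cnot4 at -0.28. Spliceosome genes gave 5 lower and 2 higher of 46 with a median of -0.14 (8 and 4, -0.11), with Snrpf at -0.46 and Sf3b5 at -0.82 against Snrpn at 0.69 and Lsm6 at 0.64. Genes of the RNA polymerase II machinery and Mediator gave 8 lower and 5 higher of 71 (13 and 6). Cytosolic ribosomal proteins gave 4 lower and 0 higher of 33 (5 and 1), all at under 50 CPM in every wildtype library: Rps16 at -0.82, Rpl14 at -0.80, Rpl39l at -0.72 and Rpl17 at -0.56. Ybx1, a main storage protein of maternal messages, fell from a median of 60.6 to 39.3 CPM (-0.49, adjusted p = 4.43e-03).

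In glycolysis, pyruvate and TCA genes 3 were higher and 3 lower of 23, with and without replicate 15: G6pdx, the entry enzyme of the pentose phosphate pathway, had 36.3, 50.4 and 91.6 CPM in wildtype and 14.7, 28.6 and 44.7 CPM in knockout, with replicate 15 at 20.3. The ranges overlapped, and all 16 knockout libraries were under the wildtype median (-0.94, SE 0.15, adjusted p = 3.82e-05). The mitochondrial pyruvate carrier Mpc1, which takes in the fuel on which oocytes depend, was at -0.57 (adjusted p = 4.11e-05), and the lactate dehydrogenase Ldhb at 0.72 (adjusted p = 8.91e-03). Nuclear oxidative phosphorylation genes gave 6 lower and 3 higher of 49 (9 and 7 without replicate 15), and proteasome genes 4 lower and 2 higher of 33 (5 and 7). Ubiquitin-conjugating enzymes gave 4 higher and 0 lower of 27 (5 and 1), and deubiquitinases 4 lower and 0 higher of 46 (7 and 1 of 47). Of 6 tested genes of the 14-3-3 signalling adaptors, Ywhae and Ywhab were higher, at 0.24 and 0.34. Proteins of the mitochondrial ribosome gave 4 lower and 3 higher of 43 (6 and 4), with a median of -0.09. Mrpl9 and Mrpl39 were at 0.74 and 0.88, and Mrpl1 at -0.60. Among DNA repair genes, the mismatch repair gene Msh3 had 136, 173 and 209.6 CPM in wildtype and 179, 243 and 273 CPM in knockout, with replicate 15 at 137 (0.43, SE 0.08, adjusted p = 1.90e-04; 0.47 without replicate 15).

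Mitochondrially encoded genes depended on replicate 15. Over 32 libraries 2 of 14 were lower and 0 higher with a median of -0.19, and without that library 9 were lower and 0 higher with a median of -0.39. mt-Cytb, a subunit of respiratory complex III, had 3095, 4180.0 and 6328 CPM in wildtype and 2637, 3359 and 4653 CPM in knockout, while replicate 15 had 13050 CPM. The other knockout oocytes thus lay low and replicate 15 above all (-0.11, adjusted p = 0.765, against -0.43, adjusted p = 8.92e-04, without it). The p53 inhibitor Mdm4 behaved alike: wildtype 3465 to 4419, knockout 2778 to 3769 and replicate 15 at 6989 CPM, with -0.15 (adjusted p = 0.451) and -0.29 (adjusted p = 2.88e-04). In the opposite direction, Naca, a chaperone of nascent chains, was called higher at 1.62 (adjusted p = 0.0245) over 32 libraries through replicate 15 alone, which had 736 CPM where the other knockout oocytes had 23.4 to 46.5 and wildtype 19.4 to 39.2 CPM. Without it Naca was at 0.11 (adjusted p = 0.552), and Zfp930 went from 1.19 to 0.20 (adjusted p = 0.0384 and 0.265).

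Some transcripts of other tissues, present at low level in wildtype oocytes, were lower in knockout oocytes. They are single members of lists whose medians are given below. Olfr819, an olfactory receptor gene, fell from a median of 9.59 to 3.17 CPM (-1.88, SE 0.28, adjusted p = 1.16e-05), and the pheromone receptor gene Vmn1r139 from 18.3 to 5.90 CPM (-1.57, adjusted p = 3.42e-04), the knockout medians without replicate 15. In all, 6 of 28 olfactory, vomeronasal and taste receptors tested were lower and 1 higher, with and without replicate 15, of 1493 in the table. The median of these receptors was -0.014 (-0.097 without replicate 15). Replicates 1 to 8 gave 3 lower and 0 higher of 24, and replicates 9 to 16 without replicate 15 gave 2 and 0 of 30. Speer4f2 of a testis-expressed family had 1.65, 22.3 and 62.4 CPM in wildtype and 0, 1.21 and 21.4 CPM in knockout, with replicate 15 at 0. Wildtype oocytes spread over a wide range, and the knockout median lay under their lowest value (-3.53, SE 0.55, adjusted p = 3.57e-05; -3.44 without replicate 15). Cyp2c29, a liver cytochrome P450, was at -0.93. The list of Speer and other testis-linked families had 2 lower and 1 higher of 29 (2 and 3 without replicate 15), with a median of 0.135. Cytochrome P450 genes had 1 lower and 0 higher of 12 (2 and 0), with a median of 0.139. Shares of lower calls were 21.4% for the receptors, 6.9% for the testis-linked list and 8.33% for cytochrome P450, against 6.69% over all genes. Detection was compared after thinning each library to 2000000 counts. Trav9-4 was detected in 14 wildtype libraries and 1 knockout library, and Olfr1175-ps in 14 and 2, while 0 genes were detected in at least 14 knockout and at most 4 wildtype libraries. Their mean levels were 0.764 and 1.62 CPM in wildtype and 0.0691 and 0.106 CPM in knockout, where the floor, 3 counts over the group, was 0.0561 CPM.

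Of 9 measures of whole libraries, each compared between genotypes with a two-sided permutation test (100000 resamples, p adjusted over the 9), the share of pseudogene counts differed over 32 libraries: 0.0375% ± 0.00435 in wildtype and 0.0287% ± 0.00439 in knockout (SD, n = 16 each, p = 1e-05, the smallest that the resamples can give, adjusted 9e-05), with 1 of 16 knockout libraries above the wildtype median. The long non-coding share was 2.62% ± 0.149 and 2.49% ± 0.197 (adjusted permutation p = 0.083), and 2.45% ± 0.143 without replicate 15 (n = 15, adjusted permutation p = 0.00578). The mitochondrially encoded share was 1.36% ± 0.250 and 1.22% ± 0.663 (adjusted permutation p = 0.655), and 1.06% ± 0.225 without replicate 15 (n = 15, adjusted permutation p = 0.00396). Within replicates 1 to 8 the last difference was -0.403 percentage points (adjusted permutation p = 0.0182), and within replicates 9 to 16 without replicate 15 it was -0.192 (adjusted permutation p = 0.199). Protein-coding counts were 96.9% ± 0.195 in wildtype and 97.1% ± 0.166 in knockout without replicate 15 (adjusted permutation p = 0.00207). Shares are parts of one whole, so a rise in one goes with a fall in others.

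**Figure D4:**
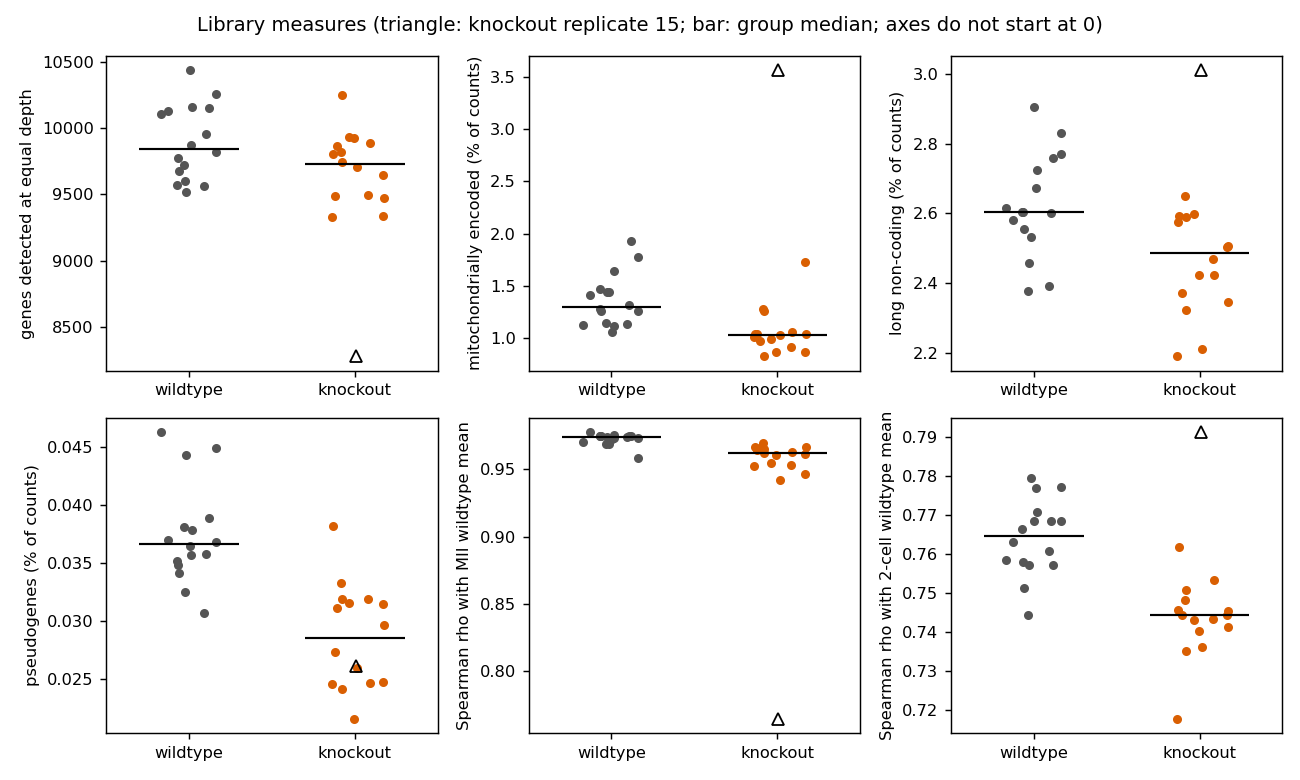
Measures of each library by genotype, with group medians as bars and knockout replicate 15 as a triangle; axes do not start at 0. The pseudogene share is lower in knockout libraries, and replicate 15 lies far above the others in its mitochondrially encoded share, at 3.57%.

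Embryos at the 2-cell stage give the same genotypes in 32 other libraries, from oocytes of either genotype fertilized with Kdm4a knockout sperm, and they share no library with the MII comparison. Of 8728 genes tested there, 633 (7.25%) were higher and 873 (10%) lower. All 11 non-coding copies of chromosome X were lower there too, with a median of -2.38, as were 10 of 20 genes tested in the chromosome 4 window and 9 of 13 in the chromosome 14 window, with 0 higher in any. Of the 514 genes lower in MII oocytes, 486 were tested at the 2-cell stage: 326 (67.1%) had a negative log2 fold change, 131 (27.0%) were called lower and 17 higher, against 45.4% negative and 7.03% called lower over the 6983 genes tested at both stages. For the 92 that were at least 2-fold lower in oocytes, 79 were tested, 74 were negative (93.7%) and 51 called lower (64.6%), among them Ttc6 at -1.32, Serpinb3a at -1.99, Lepr at -2.46 and Nlrc4 at -1.44. Of the 137 lower genes with clone names, 128 were tested and 63 called lower (49.2%).

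Of the 405 higher genes 378 were tested, 284 (75.1%) had a positive log2 fold change and 86 (22.8%) were called higher, against 54.6% positive and 8.65% called higher over those 6983 genes. Of the 392 called higher with and without replicate 15, 365 were tested and 278 (76.2%) were positive. Of the 513 called lower with and without it, 485 were tested and 326 (67.2%) were negative. Of the 49 that were at least 2-fold higher in oocytes over 32 libraries, 37 were tested. Of these, 19 were positive and 18 negative, with 2 called higher and 5 lower. The 49 include Naca and Zfp930, whose calls hung on replicate 15 and which were at -0.265 and -0.084 at the 2-cell stage. The 49 were not counted again without that library. Tpm4, at 1.58 in oocytes, was at -1.06 at the 2-cell stage (adjusted p = 0.0195), and Calm2, at 1.30, was at -0.51 (adjusted p = 0.0132). Apip and Kpna2 stayed higher, at 1.18 and 0.86. Whether these changes differ between the stages was not tested here.

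**Figure D5:**
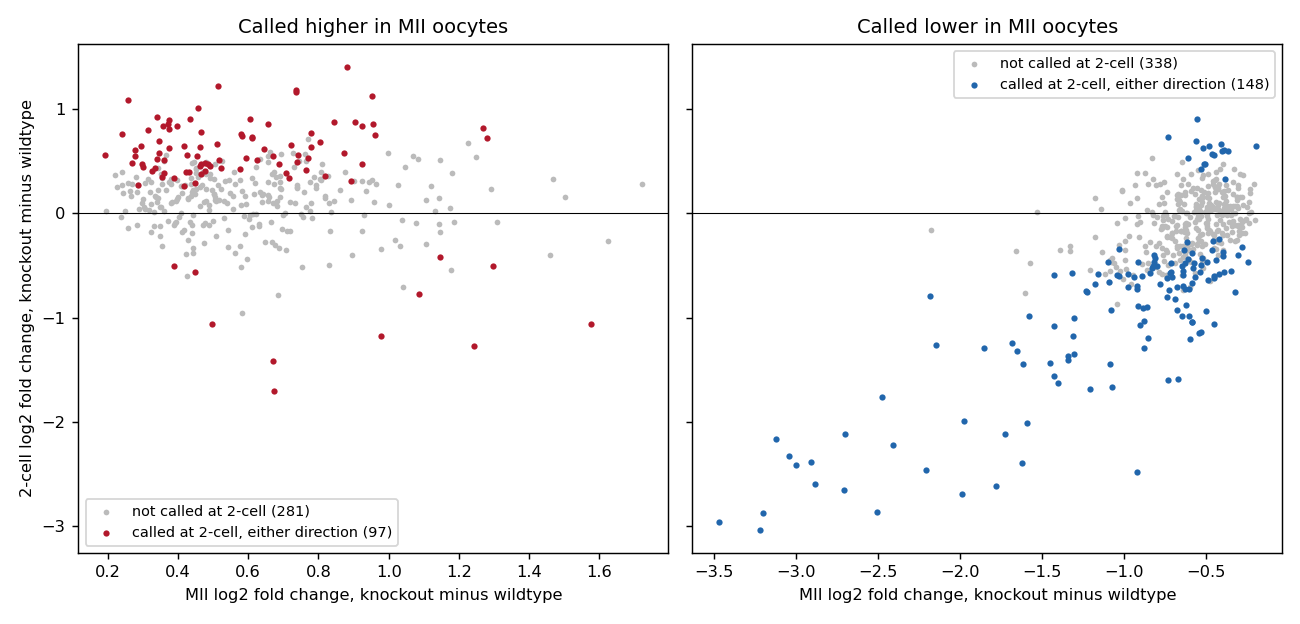
Log2 fold change at the 2-cell stage (vertical) against that in MII oocytes (horizontal) for the genes called higher (left) and lower (right) in MII knockout oocytes that were tested at both stages. MII values and calls are those over all 32 libraries, knockout replicate 15 included. The lower genes with large decreases lie below 0 at the 2-cell stage (74 of 79), while the higher genes with large increases fall on both sides of 0 (19 and 18).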

How the data were processed

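Single-oocyte polyA RNA was amplified (the series text names SMART-Seq v4, the extraction text a stranded SMART-Seq kit) and made into Nextera XT libraries, per the labels. Per the submitters' processing notes, Trimmomatic 0.32, STAR 2.5.1a and featureCounts 1.5.1 were used with mm10. The authors deposited expected counts, with 30.6% of the non-zero values not whole numbers. The file's name gives GENCODE release M18. The setting that divided reads and any use of strand are not given in the sources used here.

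Values were rounded to whole counts. Genotypes were compared with edgeR 4.0.16 under R 4.3.3 (glmQLFit with robust estimation, glmQLFTest, TMM normalization and filterByExpr), with Benjamini-Hochberg adjustment over all genes tested; DESeq2 1.42.0 and limma 3.58.1 were alternatives, and scripts were tested on simulated data. All 32 libraries entered, and all was repeated without knockout replicate 15. Positions are those of the file, and types come from GENCODE M21: of 7680 genes, 6629 matched by symbol, 1025 by position with at least 50% overlap and 26 not. In the deposited file 922 of the 945 clone-named genes tested took a type by position and are printed under the M21 symbol. Promoters are RefSeq's. CPM values are counts over the library total.

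Named genes were, outside Kdm4a and lists, those with plain symbols and at least 20 CPM: the 8 each way with the smallest p and, at 200 CPM or more, the 6 each way with the largest change, called with and without replicate 15; per list up to 4 called genes with the smallest p, per class up to 3; and 4 genes each whose call hung on replicate 15, of which some are printed. Other names were chosen after their values were seen (Gdf9, Plat, Mos and Fth1 for replicate 15, and list members given at values that missed the threshold). Members and lists were chosen with earlier results of these data known. Symbols that matched a list's pattern but name another gene were removed, and the clone-name, not-whole and window classes added, after values were seen. Numbers did not pair the samples: same-numbered libraries of both genotypes correlated at -0.147 to 0.168. Python 3.11.15 did the rest.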

Additional observations from a re-analysis of the deposited data

How the results depend on the processing

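Counts of calls over 32 libraries were 405 higher and 514 lower. Leaving out each library in turn gave 321 to 759 higher and 395 to 758 lower, the highest without knockout replicate 15 and the others at most 425 and 544. Without that library DESeq2 gave 827 and 836, RLE size factors 738 higher, and the fit with the replicate number as a block, number 15 left out, 691 higher. The same block over all numbers gave 272 and 489; 5 pairs correlated over 0.1, and 2 libraries best with their own number. limma-voom with quality weights, which can lower the weight of a library that stands apart, gave 736 and 827. Replicates 9 to 16 alone gave 53 and 111 with replicate 15 and 365 and 404 without it, and replicates 1 to 8 gave 289 and 369. Asking also for a log2 change of 1 in size left 49 and 92. DESeq2 over all libraries gave 551 and 604.

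The spread within knockout fell from 0.365 to 0.247 without replicate 15. Of the library measures, 4 passed only without it: the protein-coding share (0.256 percentage points, 0.265 in replicates 1 to 8 at an adjusted permutation p of 0.069 and 0.254 in replicates 9 to 16 at 0.0448), the long non-coding share (-0.173), the mitochondrially encoded share (-0.301, -0.403 in replicates 1 to 8 and -0.192, which did not pass, in replicates 9 to 16) and the cytosolic ribosomal protein share (-0.0126). Detection in at least 12 libraries of one genotype gave 22 genes in wildtype only and 6 in knockout only. Of 363 values of the 26 named genes under an alternative, 347 kept their direction and side of the threshold, 16 kept direction only (12 of them in replicates 9 to 16) and 0 reversed. Detection asked for at least 1 count in a library thinned to 2000000 counts. The floor given for mean levels is 3 counts over a group of libraries. The cause of replicate 15's influence was not tested.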

Other observations

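Of 30 keratins, collagens, cadherins and integrins tested in MII oocytes, 5 were higher (16.7%) and 1 lower (3.33%) in knockout (5 and 2 of 31 without replicate 15). Over all genes the shares were 5.27% and 6.69%. The list's median log2 fold change was -0.047 (0.005 without replicate 15). Replicates 1 to 8, and 9 to 16 without replicate 15, each gave 2 higher and 1 lower. Krt12, a corneal keratin, had 26.5, 41.8 and 66.9 CPM in wildtype and 46.2, 57.2 and 103 CPM in knockout, with a log2 fold change of 0.49 (adjusted p = 0.0123), Krt84 was at 0.72 and the protocadherin gene Pcdhb17 at 0.92 (adjusted p = 2.66e-03). Spata6, which is not of these families and takes part in building the sperm neck, was higher at 0.74 (adjusted p = 4.40e-04). All 4 were also positive at the 2-cell stage, at 0.47, 0.66, 0.83 and 0.49, as were 54.6% of the 6983 genes tested at both stages. These are single genes and do not stand for the list, 1 member of which was lower.

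Of 19 marker genes of genome activation, 5 were tested, with 1 higher and 1 lower (2 and 1 without replicate 15). Tcstv1 was higher at 0.66 (adjusted p = 9.59e-03), with a median of 244 CPM in knockout without replicate 15 against 137 CPM in wildtype, and Tmem92 was lower at -1.21 (adjusted p = 8.32e-04). Casp8, which starts the extrinsic death pathway, ran from 34.3 to 117 CPM in wildtype oocytes and from 14.96 to 38.4 CPM in knockout oocytes, with replicate 15 at 116 CPM, and its log2 fold change went from -0.83 to -1.16 when that library was left out. No explanation of these values was tested.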
